A study of Mus musculus with 24 samples.

Results

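Isoform usage, the share that each transcript takes of the summed level of its gene, was compared between obstructed and sham-operated mouse kidneys. The obstructed libraries came from left kidneys of wildtype mice after unilateral ureteral obstruction (UUO), in which the ureter of 1 kidney is closed, and the reference libraries from left kidneys after sham surgery. Within each surgery 4 libraries were labelled vehicle, 4 early intervention and 4 late intervention, where the drug is istradefylline, an adenosine receptor blocker. The comparison thus set 12 UUO libraries (UUO vehicle, UUO early, UUO late) against 12 sham libraries (sham vehicle, sham early, sham late), and a fitted difference is the mean of the 3 UUO groups minus the mean of the 3 sham groups. The labels give no age, sex, strain, dose or days of treatment. They do not say whether each library came from a separate mouse, and p-values thus measure the spread between libraries. Genes entered when the deposited transcript table lists at least 2 transcripts for them and when these sum to at least 5 FPKM (fragments per kilobase of transcript, scaled to the mapped fragments of the library) in all 24 libraries. This held for 2957 of 14377 genes, with 9494 of 27011 transcripts. Of the others, 7777 genes have 1 listed transcript and 3643 fell under 5 FPKM in some library. The lowest sum was 5.0 FPKM for Dnajc1, just inside the rule, and 4.997 FPKM for Pnpla8, just outside it.

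A gene can give rise to several messenger RNAs through alternative first exons, through inclusion or skipping of internal exons, and through alternative last exons. Alternative first exons reflect different promoters, whereas internal and last exons are chosen by splicing factors and by the site of cleavage and polyadenylation. In the kidney the choice decides, for example, which variant of the sodium-potassium-chloride cotransporter the thick ascending limb makes. Obstruction dilates the tubules, injures the tubular epithelium, brings in macrophages and activates fibroblasts, and these cell types are known to use different isoforms of many genes.

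The 24 libraries differed in more than surgery. The steps of the lowest FPKM values gave an estimated 7720000 to 12850000 fragments per library, with medians of 10130000 in UUO and 10320000 in sham libraries. The 10 proximal tubule markers summed to 1796 to 11230 FPKM in UUO and 16920 to 28430 FPKM in sham libraries, the 8 fibroblast and pericyte markers to 267 to 917 FPKM against 23.1 to 65.2 FPKM, and the 8 macrophage markers to 970 to 3383 FPKM against 40.4 to 66.3 FPKM. These 3 sums did not overlap between the surgeries, so every result below moved together with them. Their part in the results was not tested, and in whole kidneys fewer cells of a type and less RNA per cell cannot be told apart. The library UUO early 4 also held skeletal muscle RNA (5 markers at 2892 FPKM in sum). The other 11 UUO libraries had a median of 2.17 FPKM but a highest value of 148.4 FPKM, against at most 2.10 FPKM in sham libraries. Muscle RNA was thus not confined to UUO early 4. Neutrophil RNA was high in UUO early 4 as well (4 listed markers at 1431 FPKM). The other 11 had a median of 51.3 FPKM and a highest value of 167 FPKM. On the shares themselves, the first principal component (9.12% of the variance) separated all UUO from all sham libraries, while UUO vehicle 4 lay apart on the second (7.59%).

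Obstruction went with a changed isoform usage in 241 of the 2957 genes, 8.15% of those tested. A transcript was called when limma, on the arcsine square root of the share, gave a Benjamini-Hochberg adjusted p under 0.05 over all 9494 transcripts and the mean share differed by at least 10 percentage points. A gene was called when at least 1 of its transcripts was. By this rule 375 transcripts (3.95%) changed, 189 with a higher share in UUO (1.99%) and 186 with a lower one (1.96%). With no minimum size 563 genes (19.0%) passed. The largest difference within a called gene had a median of 16.7 points, against 4.7 points over all 2957 genes. A difference of 20 points or more was reached by 84 called genes and one of 40 points or more by 21. Without UUO early 4 the count was 219 genes and without UUO vehicle 4 it was 230.

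In 33 of the called genes (1.12% of those tested), through 52 transcripts (0.548%), the 12 UUO and the 12 sham libraries did not overlap at all. In 42 genes (1.42%) the leading transcript of the UUO libraries was another than that of the sham libraries, with both transcripts called. Shares were noisy: among 6476 transcripts with a mean share of at least 5% the SD within a group of 4 libraries had a median of 5.96 points. In 1094 of the 2957 genes, 88 of them called, some transcript ranged over 50 points or more within a single group.

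**Figure D1:**
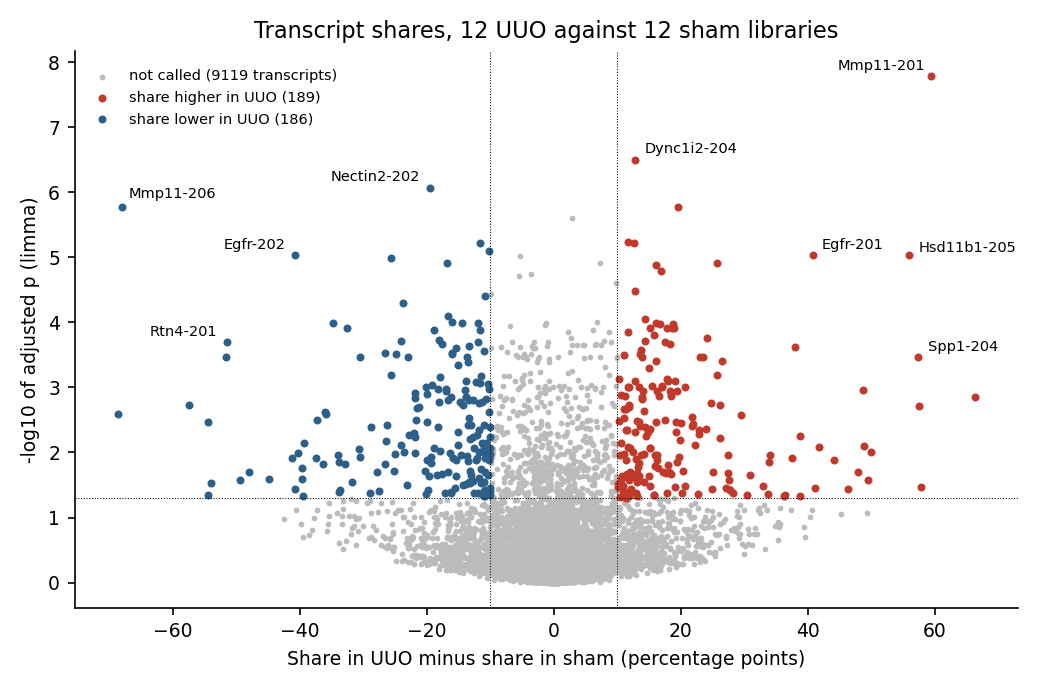
Difference in share (x axis, percentage points, UUO minus sham) against the -log10 of the adjusted p (y axis) for 9494 transcripts, 1 point each. Called transcripts are coloured, 189 with a higher share in UUO in red and 186 with a lower share in UUO in blue; dotted lines mark 10 points and an adjusted p of 0.05.

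The level of a transcript and its share need not move together, since the gene as a whole can change. Summed FPKM rose in 1347 (45.6%) and fell in 964 (32.6%) of the 2957 genes on the log2(FPKM + 1) scale, with a median difference of 0.13 (log2). Of the 241 called genes, 128 rose, 73 fell and 40 did not pass. A share is made from the transcript's own level, so a call on share favours a change in level in the same direction. Of the 189 transcripts that gained share, 148 rose in level, 10 fell and 31 did not pass. Among all 21787 transcripts tested for level, which include genes outside the 2957, 8597 (39.5%) were higher and 3664 (16.8%) lower. Of the 186 transcripts that lost share, 110 fell, 27 rose and 49 did not pass.

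The gaining and the losing transcript of each gene were compared by their exons in the GENCODE M21 annotation (mouse build GRCm38), for 228 called genes and 2778 genes in all. First exons did not overlap in 104 called pairs (45.6%, against 42.5% of all pairs), last exons did not overlap in 56 (24.6%, against 25.0%), and 1 transcript held an internal exon that the other skipped in 57 (25.0%, against 29.2%). The kinds of difference thus took similar shares of the called genes and of all genes. The gaining transcript was the longer in 147 called pairs (64.5%, against 58.2%) and had the longer coding sequence in 117 (51.3%, against 43.7%). Among the 31 annotated genes whose libraries did not overlap, last exons did not overlap in 13 (41.9%) and first exons in 10 (32.3%). In 4 called genes (Ezh1, Lamtor5, Psmd8 and Samd1) the pair shares all introns and differs only at its ends, so that FPKM estimates cannot separate these transcripts well.

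Egfr, the receptor for epidermal growth factor, exchanged its leading transcript while its total did not pass the test (8.67 ± 1.40 FPKM in UUO and 9.53 ± 0.97 FPKM in sham libraries, SD, n = 12 each, adjusted p = 0.119 with limma). Egfr-201 (chr11:16752211-16918158, + strand) encodes the full-length receptor of 1210 codons, and Egfr-202 ends early in another last exon with 655 codons, leaving out the transmembrane and kinase parts. The share of Egfr-201 had a lowest value of 64.5%, a median of 81.0% and a highest of 100% in UUO libraries, against 35.2, 40.7 and 48.9% in sham libraries. Full-length Egfr led in all 12 UUO libraries and the short form in all 12 sham libraries, with no overlap. The difference was 40.7 points (adjusted p = 9.28e-06, limma). In level, Egfr-201 rose to 6.96 ± 0.725 FPKM in UUO, against 3.85 ± 0.35 FPKM in sham libraries, and Egfr-202 fell to 1.71 ± 0.995 FPKM, against 5.68 ± 0.89 FPKM.

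Mmp11, the matrix metalloproteinase stromelysin-3, had the smallest adjusted p of any transcript. Mmp11-201 (chr10:75923222-75932502, - strand), which holds the full coding sequence of 492 codons, took between 47.4 and 82.5% of the gene in UUO libraries with a median of 64.4%, against 2.79 to 9.43% in sham libraries with a median of 4.93%. Every UUO library lay above every sham library, by a mean difference of 59.4 points (adjusted p = 1.62e-08, limma). Its level rose to 18.7 ± 8.96 FPKM in UUO, against 1.30 ± 0.45 FPKM in sham libraries (SD, n = 12 each). The transcript that led in sham libraries, Mmp11-206, is marked incomplete in the annotation, and its share was 24.4 ± 15.4% in UUO and 92.3 ± 3.13% in sham libraries. Of its 674 bases 23.0% overlap Chchd10, a mitochondrial protein gene on the opposite strand, whose own level was 107.9 ± 28.3 FPKM in UUO and 236.4 ± 26.2 FPKM in sham libraries. The part of Chchd10 reads in this result was not tested.

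**Figure D2:**
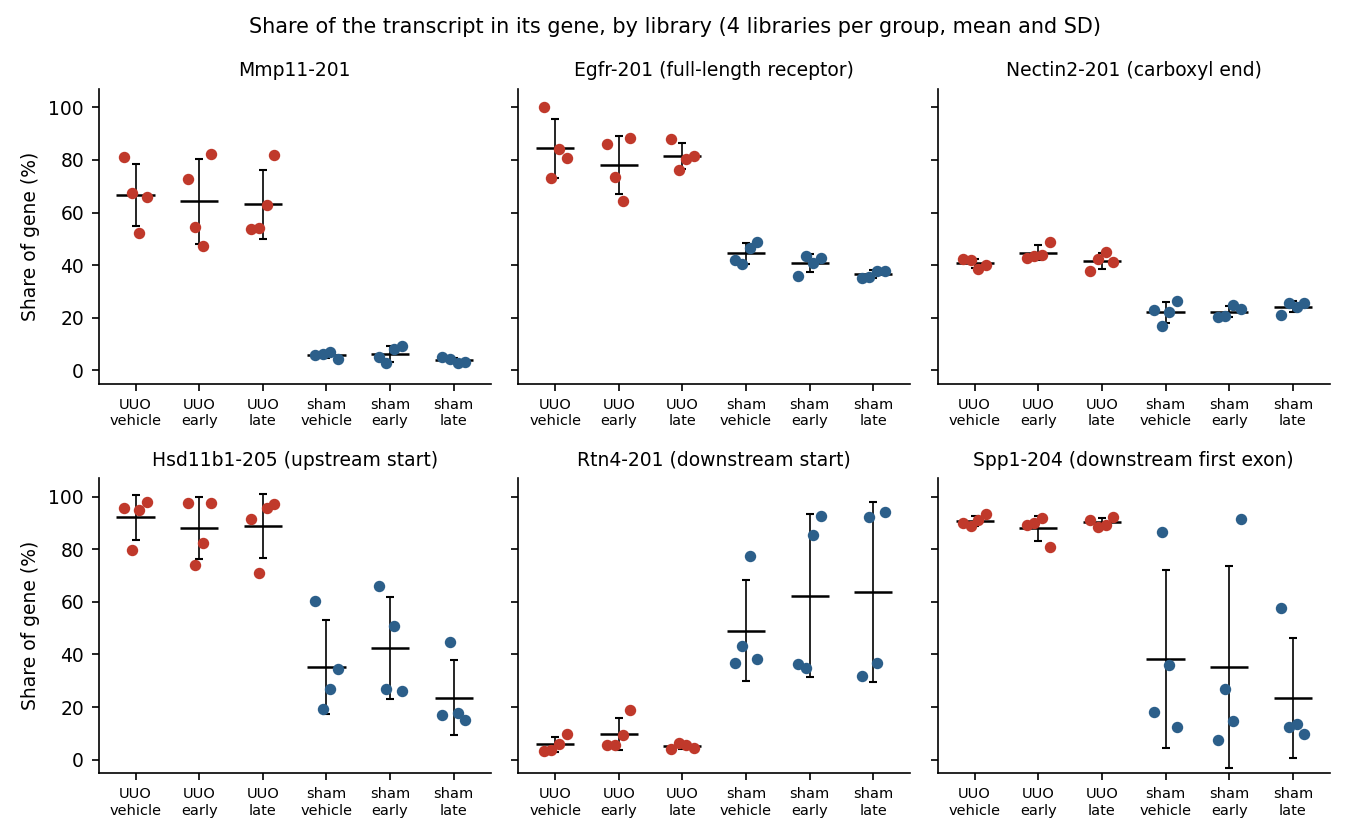
Share of 6 transcripts in their genes (y axis, percent) by group (x axis), 1 point per library, with the mean and SD of 4 libraries in black; UUO groups in red, sham groups in blue. Mmp11-201, Egfr-201, Nectin2-201, Hsd11b1-205 and Rtn4-201 do not overlap between UUO and sham libraries, whereas single sham libraries reach the UUO range for Spp1-204.

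A further 6 genes exchanged the lead without overlap. Kcnk1 encodes a two-pore potassium channel, and its transcript Kcnk1-201 took 69.5 ± 8.75% in UUO and 45.5 ± 6.53% in sham libraries (adjusted p = 0.000175, limma); it also led in 3 sham libraries. Rsu1, a partner of the integrin-linked adhesion complex, moved to Rsu1-202, which lacks an internal exon of Rsu1-201, with 56.9 ± 5.30% in UUO and 33.9 ± 9.29% in sham libraries (adjusted p = 0.00034). Both Rsu1 transcripts rose in level, Rsu1-202 by a log2 difference of 1.94 and Rsu1-201 by 0.66.

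Slco3a1, an organic anion transporter, and Vwa8, a mitochondrial AAA-type ATPase, exchanged the lead while both of their transcripts fell. Slco3a1-201 took 55.5 ± 3.59% in UUO and 39.5 ± 3.86% in sham libraries, and Slco3a1-202, with another last exon, fell to 21.2 ± 4.31 FPKM in UUO, against 47.5 ± 7.41 FPKM in sham libraries. Vwa8-201, with 1905 codons, took 63.1 ± 14.3% in UUO and 42.8 ± 2.06% in sham libraries. Its adjusted p was 0.0194 and became 0.0663 on a log2 ratio scale with a pseudocount of 0.1. Ensa, which encodes a regulator of protein phosphatase 2A in mitosis, had closer shares. Ensa-201 took 50.6 ± 3.87% in UUO and 39.0 ± 3.09% in sham libraries, and it led in 6 of the 12 UUO libraries and in none of the sham libraries. The uncharacterised 1500011B03Rik moved to 1500011B03Rik-202 with 53.2% in UUO (43.4 to 62.8%) and 27.5% in sham libraries (17.0 to 36.3%).

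**Figure D3:**
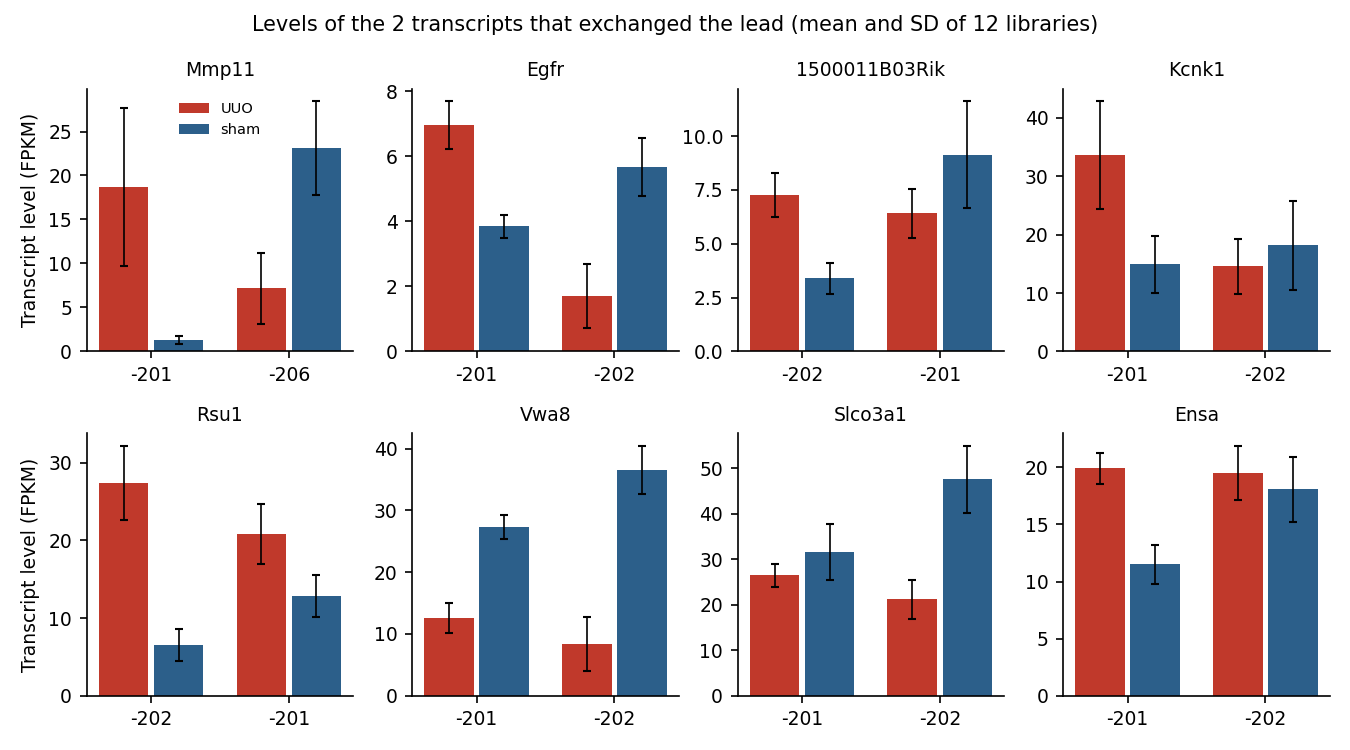
Level in FPKM (y axis, from 0) of the gaining (left pair of bars) and the losing transcript (right pair) of 8 genes that exchanged their leading transcript, as mean and SD of 12 UUO (red) and 12 sham libraries (blue). In Mmp11 and Egfr 1 transcript is higher and the other lower in UUO, in Rsu1 both are higher, and in Vwa8 and Slco3a1 both are lower.

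Alternative transcription starts carried other large differences. Hsd11b1 encodes the enzyme that regenerates active glucocorticoid from its inert form, and it is known to be transcribed from more than 1 promoter. Hsd11b1-205 (chr1:193221689-193264075, - strand), which starts upstream of the other listed transcripts, took 71.0 to 97.9% in UUO libraries with a median of 95.4%, against 14.9 to 65.9% in sham libraries with a median of 26.8%. The libraries did not overlap and the difference was 55.9 points (adjusted p = 9.31e-06, limma). Hsd11b1-201, Hsd11b1-202 and Hsd11b1-203, from downstream starts, together held 10.1 ± 9.86% in UUO and 65.6 ± 17.6% in sham libraries. Total Hsd11b1 fell to 50.6 ± 11.9 FPKM in UUO, against 101.9 ± 45.0 FPKM in sham libraries, yet Hsd11b1-205 rose by a log2 difference of 0.65 while Hsd11b1-203 fell by 3.83. Hsd11b1-205 and Hsd11b1-201 share a coding sequence of 292 codons, and Hsd11b1-203 has 262.

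Rtn4 encodes the reticulon Nogo, an endoplasmic reticulum shaping protein, in long forms and in the short form Nogo-C, which starts at its own downstream promoter. That short transcript, Rtn4-201 (chr11:29718563-29742916, + strand), had a lowest share of 3.32%, a median of 5.66% and a highest of 18.7% in UUO libraries, against 31.8, 40.9 and 94.3% in sham libraries. No UUO library reached the lowest sham library, although sham libraries spread over more than 50 points (difference -51.5 points, adjusted p = 0.000201, limma). The 3 transcripts from the upstream start together took 93.1 ± 4.24% in UUO and 41.6 ± 27.0% in sham libraries. Of these, Rtn4-205 took 10.7 ± 7.92% in UUO and 2.83 ± 2.04% in sham libraries, past the threshold (adjusted p = 0.0185) but under the minimum of 10 points, and its level rose by a log2 difference of 1.41. Rtn4-202 (adjusted p = 0.137) and Rtn4-204 (0.149) did not pass in share on their own. Of the bases of Rtn4-202, 35.5% overlap Eml6 on the opposite strand, at 0.62 ± 0.09 FPKM in UUO and 0.46 ± 0.10 FPKM in sham libraries.

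Spp1, the secreted phosphoprotein osteopontin, rose by a log2 difference of 3.72 as a gene, and Spp1-204 and Spp1-201 encode the same 294 codons from different first exons. Spp1-204 (chr5:104436192-104441043, + strand), from the downstream first exon, took 89.6 ± 3.15% in UUO (80.8 to 93.3%) and 32.3% in sham libraries (7.58 to 91.6%; adjusted p = 0.00034, limma). The sham libraries were split: sham early 4 with 91.6%, sham vehicle 2 with 86.6% and sham late 1 with 57.5% lay high, and the median was 16.4%. The other listed transcripts begin in the upstream first exon and together took 10.4 ± 3.15% in UUO and 67.7% in sham libraries. In level, Spp1-201 from the upstream exon also rose, by a log2 difference of 1.14, with Spp1-204 at 5.68.

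Among the smaller changes at the start of genes, Amz2, a metalloprotease of the archaemetzincin family, kept its total (20.6 ± 1.76 FPKM in UUO and 20.5 ± 1.48 FPKM in sham libraries, adjusted p = 0.976). Its transcript Amz2-202 took 43.5 ± 4.89% in UUO and 26.8 ± 3.33% in sham libraries, without overlap and with the same coding sequence as Amz2-203. Cdkn1c, which encodes the cell cycle inhibitor p57, moved to Cdkn1c-201 with 69.4 ± 12.1% in UUO and 49.6 ± 9.71% in sham libraries. Its incomplete transcript Cdkn1c-205 did not overlap (18.3 ± 6.17% in UUO and 36.3 ± 6.40% in sham libraries). However, 60.6% of the bases of Cdkn1c-205 and 31.0% of those of Cdkn1c-201 lie opposite the antisense gene Gm44732.

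Alternative last exons changed motors and membrane proteins. Kif1b encodes a kinesin motor whose shorter alpha form carries mitochondria and whose longer beta form carries synaptic vesicle precursors in neurons. The alpha transcript Kif1b-201 took 24.2 ± 6.92% in UUO and 7.40 ± 2.56% in sham libraries (adjusted p = 1.62e-05, limma), and the beta transcript Kif1b-203 still led in both. Nectin2, an adherens junction immunoglobulin protein, moved towards Nectin2-201 (42.4 ± 2.92% in UUO and 22.9 ± 2.78% in sham libraries, adjusted p = 1.70e-06), which differs from Nectin2-202 in its carboxyl end, and both transcripts rose. The endosomal kinesin Kif16b moved to Kif16b-201, with 61.7 ± 8.60% in UUO and 41.1 ± 7.28% in sham libraries; its pair differs in the first as well as the last exon, and Kif16b-204 is marked incomplete. In these 3 genes the UUO and sham libraries did not overlap.

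In Uap1, Mfge8 and Myl6 the gaining transcript holds an internal exon that the losing one skips, and these exons are printed. They are read from GENCODE M21 transcripts (GRCm38), with the exon in capitals and 10 bases of the neighbouring exons in lower case.
Uap1-203 exon, chr1:170147996-170148046, - strand: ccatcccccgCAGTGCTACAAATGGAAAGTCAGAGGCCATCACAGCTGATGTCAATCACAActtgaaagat
Mfge8-201 exon, chr7:79143278-79143388, - strand: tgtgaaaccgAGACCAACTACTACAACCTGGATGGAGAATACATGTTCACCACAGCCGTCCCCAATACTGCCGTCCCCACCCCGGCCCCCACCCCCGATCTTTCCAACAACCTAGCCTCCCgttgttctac
Myl6-206 exon, chr10:128491720-128491764, - strand: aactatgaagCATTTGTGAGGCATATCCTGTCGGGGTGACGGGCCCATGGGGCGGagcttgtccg

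Uap1 encodes the enzyme that makes UDP-N-acetylglucosamine, the donor for glycan and hyaluronan synthesis, and its 51-base exon adds residues near the carboxyl end, as in the human isoform AGX2. Uap1-203 with this exon and Uap1-201 with a 48-base version of it together took 36.1 to 58.9% in UUO libraries with a median of 46.9%, against 15.3 to 32.6% in sham libraries with a median of 25.6%. The transcript that skips it, Uap1-202, took 52.2 ± 7.50% in UUO and 76.0 ± 5.99% in sham libraries (adjusted p = 5.02e-05, limma). Libraries of the 2 surgeries did not overlap for inclusion or for skipping.

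Mfge8 encodes lactadherin, the bridge by which phagocytes bind dying cells, and its 111-base exon codes for the stretch rich in proline and threonine of the long form. Mfge8-201 with the exon took 53.4 to 93.7% in UUO libraries with a median of 70.8%, against 0 to 76.5% in sham libraries with a median of 27.9%. Sham libraries spread widely and overlapped the UUO range (difference 37.5 points, adjusted p = 0.0121, limma). Both forms rose in level, Mfge8-201 to 35.7 ± 9.94 FPKM in UUO, against 4.88 ± 5.06 FPKM in sham libraries.

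Myl6 encodes the essential light chain of smooth muscle and non-muscle myosin, and its 45-base exon replaces the last residues of the protein: 26 of the 45 bases are coding. Myl6-206 with the exon took 29.7 to 43.4% in UUO libraries with a median of 35.96%, against 14.1 to 25.9% in sham libraries with a median of 19.0%. All UUO libraries lay above all sham libraries (16.0 points, adjusted p = 1.29e-05, limma). Myl6-205, which lacks the exon, took 10.7 ± 4.46% in UUO and 19.6 ± 5.47% in sham libraries, a difference under the minimum of 10 points. Much of the gene lay in 2 transcripts that did not pass. Myl6-201 took 34.0 ± 6.36% in UUO and 39.9 ± 6.31% in sham libraries (adjusted p = 0.179, limma). Myl6-211 took 20.2 ± 2.57% in UUO and 21.3 ± 2.40% in sham libraries (0.657). Shares were not summed by exon, so inclusion over the whole gene was not measured. The smooth muscle markers, 5 genes, summed to 60.0 to 302 FPKM in UUO and 11.9 to 33.5 FPKM in sham libraries, and their part in this shift was not tested.

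Slc12a1 encodes the sodium-potassium-chloride cotransporter of the thick ascending limb, the target of loop diuretics. Its 3 listed transcripts differ by 3 mutually exclusive 96-base exons, known as B, A and F in their order along the gene, which code for part of the membrane region that binds ions. They are printed because the transcripts are told apart by these bases alone within the coding sequence, and capitals mark the 45 positions at which the 3 exons are not all alike.
Slc12a1-202 exon, chr2:125165495-125165590, + strand: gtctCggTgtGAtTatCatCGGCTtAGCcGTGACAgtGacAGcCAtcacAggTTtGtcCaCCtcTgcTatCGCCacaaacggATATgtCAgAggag
Slc12a1-201 exon, chr2:125166123-125166218, + strand: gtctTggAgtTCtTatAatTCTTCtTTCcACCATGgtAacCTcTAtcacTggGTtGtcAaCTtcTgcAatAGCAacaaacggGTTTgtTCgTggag
Slc12a1-203 exon, chr2:125166673-125166768, + strand: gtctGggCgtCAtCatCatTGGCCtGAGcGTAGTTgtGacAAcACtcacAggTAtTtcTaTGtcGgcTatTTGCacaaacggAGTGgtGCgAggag
The first and second exons match at 63 of 96 bases, the first and the last at 66 and the second and the last at 56.

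In sham libraries nearly all Slc12a1 RNA held the last of these exons. Slc12a1-203 took 0.40 to 99.9% in UUO libraries with a median of 79.2%, against 89.1 to 98.8% in sham libraries with a median of 97.5% (difference -31.7 points, adjusted p = 0.0287, limma). Slc12a1-201 with the second exon took 15.9 ± 16.9% in UUO and 1.64 ± 1.39% in sham libraries (adjusted p = 0.0106). Slc12a1-202 with the first exon took 19.7 ± 23.0% in UUO and 2.21 ± 2.12% in sham libraries and did not pass (adjusted p = 0.0518). UUO libraries varied widely: Slc12a1-203 was at 0.40% in UUO late 1, 9.43% in UUO vehicle 3 and 34.6% in UUO late 4, but at 99.9% in UUO vehicle 4, above every sham library. In level Slc12a1-203 fell to 29.2 ± 17.9 FPKM in UUO, against 130 ± 24.7 FPKM in sham libraries, and Slc12a1-201 rose by a log2 difference of 1.10. The 5 loop of Henle markers, Slc12a1 among them, summed to 308 to 798 FPKM in UUO and 795 to 1287 FPKM in sham libraries.

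**Figure D4:**
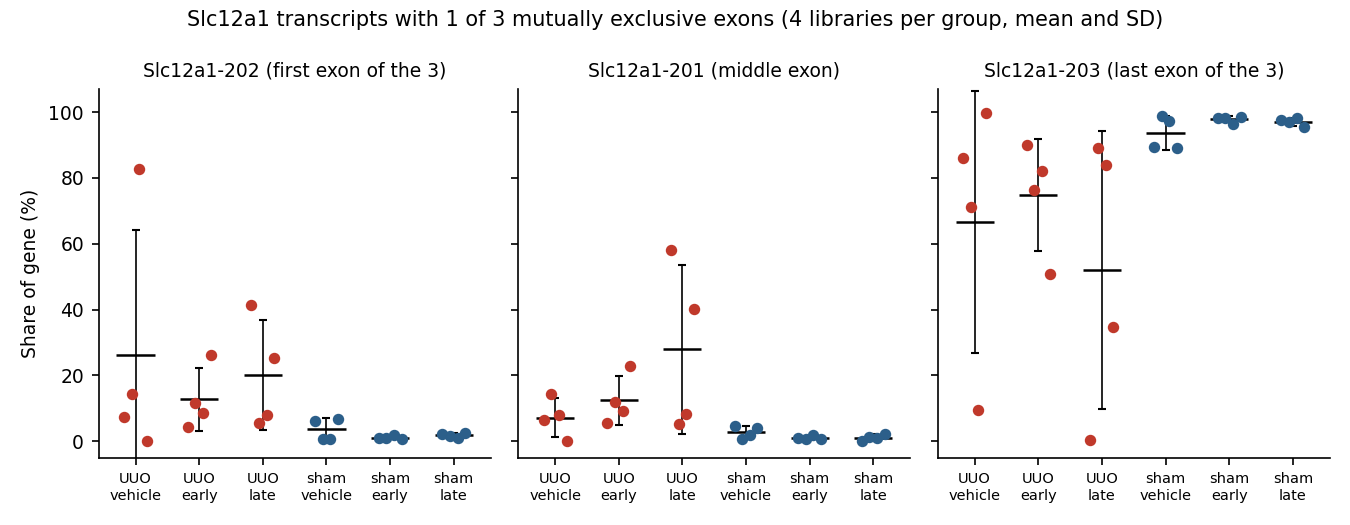
Share of the 3 Slc12a1 transcripts (y axis, percent) by group (x axis), 1 point per library, with the mean and SD of 4 libraries in black; UUO groups in red, sham groups in blue. Sham libraries sit between 89.1 and 98.8% for Slc12a1-203, whereas UUO libraries spread from 0.40 to 99.9%.

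A further 4 of the 19 genes named for the largest difference without overlap rest on less certain transcripts. Lamtor5, a subunit of the Ragulator complex on lysosomes, gained share in Lamtor5-202 (24.0 ± 18.1% in UUO and 4.05 ± 0.98% in sham libraries, adjusted p = 0.00352, limma). UUO early 4 with 66.75% and UUO late 4 with 56.1% lay high, and the UUO median was 18.6%. The introns of Lamtor5-202 equal those of Lamtor5-201. The chromatin protein gene Hmga1 moved to Hmga1-204, with 79.4 ± 2.76% in UUO and 60.6 ± 10.6% in sham libraries, and the transcripts it was set against have no matching entry in the annotation. Hmga1-204 overlaps AI413582 on the opposite strand with 4.79% of its bases. Igsf5, a junctional immunoglobulin protein, moved to Igsf5-201 with 69.3 ± 5.25% in UUO and 51.4 ± 4.84% in sham libraries. A second annotated Igsf5 gene overlaps 42.6% of its bases on the same strand, so its value is uncertain. BC004004-201 took 52.4 ± 8.81% in UUO and 35.4 ± 4.61% in sham libraries and is likewise unmatched in the annotation.

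A list of 28 targets of the epithelial splicing regulators ESRP and of epithelial splicing, chosen with earlier results known, held 11 measured genes. Of these, 5 were called (45.5%, against 8.15% of all genes). They were Uap1, Dnm2, Pard3, Macf1 and Epb41l5. Dnm2, the dynamin that pinches off endocytic vesicles, moved to Dnm2-202 (50.5 ± 5.73% in UUO and 38.6 ± 2.78% in sham libraries, adjusted p = 0.002, limma). Pard3, a scaffold of tight junction polarity, lost share in the incomplete Pard3-215 (47.5 ± 10.6% in UUO and 66.3 ± 9.29% in sham libraries). The actin-microtubule linker Macf1 gained in Macf1-205, with 17.7 ± 7.64% in UUO and 6.25 ± 3.26% in sham libraries. Its adjusted p of 0.0235 (limma) became 0.109 on a log2 ratio scale with a pseudocount of 0.1. In Pard3 and Macf1 the gaining and the losing transcript have first exons that do not overlap. The losing transcripts, Pard3-215 and Macf1-214, are both marked incomplete. Whether exons regulated by ESRP changed was not tested.

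Levels of the regulators were read from the gene table, without a test. Esrp1 averaged 4.32 ± 1.87 FPKM in UUO and 2.48 ± 0.42 FPKM in sham libraries, and Esrp2 9.15 ± 1.15 FPKM in UUO and 10.5 ± 1.16 FPKM in sham libraries, with ranges that overlapped. Rbfox2, which binds near alternative exons in mesenchymal and muscle cells, lay between 5.22 and 7.90 FPKM in UUO and between 0.25 and 1.99 FPKM in sham libraries. Qk, the splicing regulator quaking, lay between 7.90 and 17.2 FPKM in UUO and between 3.28 and 5.14 FPKM in sham libraries. Neither Rbfox2 nor Qk overlapped between the surgeries, and nor did Srsf10 (7.26 to 11.75 FPKM in UUO and 3.16 to 5.21 FPKM in sham libraries). The share of all genes without overlap in level was not counted, so this separation cannot be called particular to these regulators. Ranges of Ptbp1, Mbnl1, Celf2 and Hnrnpa2b1 overlapped. Summed FPKM rose in 45.6% and fell in 32.6% of the 2957 genes, and the part of any regulator in the shares was not tested.

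Of 29 measured splicing regulator genes 2 were called, Srsf10 and Hnrnpa2b1 (6.90%, against 8.15% of all genes), and 8 passed at any size (19.0% of all genes did). Srsf10, a splicing repressor of the SR family, gained in Srsf10-204 (18.5 ± 4.67% in UUO and 6.61 ± 4.44% in sham libraries, adjusted p = 0.000967, limma), which has another last exon and a longer coding sequence than the leading Srsf10-205. Hnrnpa2b1-201, with 301 codons, took 48.9 ± 4.22% in UUO and 37.4 ± 5.49% in sham libraries. It has the same coding sequence as Hnrnpa2b1-210, which differed by -5.70 points. Hnrnpa2b1-204, with a longer coding sequence of 341 codons, differed by -5.63 points. Among 14 measured actin and adhesion genes Myl6 alone was called (7.14%, near the 8.15% of all genes), and among 10 extracellular matrix genes Mfge8 and Spp1 (20.0%).

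Tubule genes were called at rates near the background of 8.15% of all genes. Of 14 proximal tubule genes 1 was called (7.14%), Dab2, the endocytic adaptor of megalin. Dab2-208 took 20.5 ± 8.96% in UUO and 9.00 ± 7.45% in sham libraries (adjusted p = 0.0214, limma). Its libraries overlapped, at 6.36 to 40.3% in UUO and 3.27 to 29.1% in sham libraries. Other Dab2 estimates were unstable: Dab2-201 ranged from 0.68 to 77.4% in sham libraries and did not pass (adjusted p = 0.297, limma). Of 18 measured genes of the loop, distal tubule and collecting duct, Slc12a1 and Kcnj16 were called (11.1%). Kcnj16, a basolateral potassium channel subunit, lost share in Kcnj16-202 (1.89 ± 0.52% in UUO and 35.6 ± 36.3% in sham libraries, adjusted p = 0.0371). That call was lost in 17 of 24 fits that left out 1 library. Of 20 energy genes 2 were called (10.0%, against 8.15% of all genes), Mpc1 among them. Mpc1, a subunit of the mitochondrial pyruvate carrier, gained in Mpc1-208 (60.8 ± 20.9% in UUO and 44.4 ± 4.74% in sham libraries, adjusted p = 0.0173) while its total fell by 1.45 on the log2 scale. By treatment the difference of Mpc1-208 was 10.8 points under vehicle, 36.9 under early and 1.55 under late intervention (adjusted p of the interaction = 0.791, limma). All UUO late libraries, at 42.3 to 46.8%, lay within the sham range of 33.8 to 48.6%. So did every UUO vehicle library except UUO vehicle 2, which was at 87.6%.

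Of 13 measured immune genes 3 were called (23.1%, against 8.15% of all genes), Cd74 and Cd47 among them. Cd74, the invariant chain of antigen presentation, rose by a log2 difference of 2.76 as a gene. Cd74-203 took 13.6 ± 5.16% in UUO and 0.953 ± 3.303% in sham libraries and was listed at 0 in 11 of the 12 sham libraries (adjusted p = 5.96e-06, limma). Cd74-202 took 9.51 ± 1.22% in UUO and 21.6 ± 6.79% in sham libraries. Both encode the same 279 codons, and together they took 23.1 ± 4.64% in UUO and 22.6 ± 3.81% in sham libraries, a difference smaller than the spread between libraries. Cd47, the signal that restrains phagocytes, moved to Cd47-201 with 79.3 ± 4.03% in UUO and 63.1 ± 9.78% in sham libraries (adjusted p = 0.00114, limma). Libraries overlapped, at 72.1 to 84.7% in UUO and 44.0 to 78.8% in sham libraries. Neither Cd47-201 nor Cd47-202 has a matching entry in the annotation.

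Trp53 and Bax were the 2 of 11 measured apoptosis and cell cycle genes called (18.2%, against 8.15% of all genes). Trp53-202, with the alternatively spliced carboxyl end, took 37.1 ± 14.6% in UUO and 14.3 ± 18.9% in sham libraries (adjusted p = 0.00444, limma). By treatment its difference was 2.65 points under vehicle, 35.1 under early and 30.7 under late intervention (adjusted p of the interaction = 0.802, limma). Trp53-203 fell in share by 34.8 points, but it and Trp53-201 have the same exon ends inside the gene, and the 2 together took 61.2 ± 13.0% in UUO and 81.9 ± 17.7% in sham libraries with overlap. The cell death effector Bax moved to Bax-201 (69.8 ± 10.8% in UUO and 42.8 ± 24.7% in sham libraries, adjusted p = 0.0348). That call was lost in 10 of 24 fits that left out 1 library. Of the bases of Bax-201, 22.1% are shared with Gm45808, as are 17.5 to 24.0% in the other listed Bax transcripts.

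Of 22 measured genes of endocytosis and vesicle traffic 5 were called (22.7%, against 8.15% of all genes): Dync1i2, Kif1b, Eps15l1, Dnm2 and Eps15. Dync1i2, an intermediate chain that ties cargo to dynein, had shares that varied little. Dync1i2-204 took 88.6 to 91.8% in UUO libraries with a median of 90.0%, against 74.4 to 81.6% in sham libraries with a median of 76.9%. The difference of 12.8 points (adjusted p = 3.13e-07, limma) was thus well beyond the spread, and the coding length of 612 codons equals that of Dync1i2-201. Eps15l1, an endocytic adaptor, gained in Eps15l1-205, which has the shorter coding sequence (30.8 ± 4.66% in UUO and 19.5 ± 3.89% in sham libraries). Of 11 measured growth factor and kinase genes Egfr and Arhgef1 were called (18.2%, against the same 8.15%). Arhgef1, an exchange factor for RhoA, gained in Arhgef1-202 with 38.1 ± 30.7% in UUO and 4.31 ± 9.97% in sham libraries (adjusted p = 0.014, limma). Its estimates were unstable, from 0 to 73.6% in UUO and from 0 to 28.1% in sham libraries, and 8 sham libraries were at 0.

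In 108 of the 241 called genes the total differed by under 0.5 on the log2 scale, as it did in 1534 of all 2957 genes. Such totals were thus no more frequent among the called genes than among all genes. Besides Mmp11, the largest differences in share among these 108 called genes came from estimates that were nearly all or nothing in a library. Trappc12-201, a subunit transcript of the vesicle tethering complex, was at 0 in 6 of 12 UUO libraries and at 93.1% or more in the other 6, against 90.7 to 100% in sham libraries (49.1 ± 51.3% in UUO and 98.5 ± 2.80% in sham libraries). Its call was lost in 1 of 24 fits that left out 1 library. Tdrd7-202, from an upstream start of a gene for a granule protein with tudor domains, was listed at 0 in all 12 sham libraries and in 4 UUO libraries, with a highest value of 100% in UUO.

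Tbc1d14, a regulator of recycling endosomes, moved to Tbc1d14-221 with 413 codons (76.6 ± 35.8% in UUO and 10.3 ± 28.6% in sham libraries, adjusted p = 0.00139, limma). It displaced Tbc1d14-210 with 694 codons. Plekha7, a protein of the adherens junction belt, lost share in Plekha7-203 with 19.0 ± 31.7% in UUO and 73.4 ± 24.3% in sham libraries (adjusted p = 0.00338). Ezh1, a histone methyltransferase of the Polycomb group, moved to Ezh1-203 (80.9 ± 37.9% in UUO and 23.1 ± 42.0% in sham libraries, adjusted p = 0.0341), which shares all introns with Ezh1-202. That call was lost in 16 of 24 fits that left out 1 library.

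The other 10 genes whose libraries did not overlap were named after their values were seen. Lamp2, the lysosomal membrane protein of autophagy, kept its total and shifted between last exons that code for its membrane anchor and tail. Lamp2-202 took 34.2 ± 5.13% in UUO and 19.8 ± 3.76% in sham libraries (adjusted p = 0.000196), and Lamp2-201 65.3 ± 5.08% in UUO and 78.7 ± 3.87% in sham libraries. The ribosomal protein gene Rps24, known for tiny exons at its end, lost share in Rps24-210 (55.0 ± 3.69% in UUO and 66.4 ± 4.17% in sham libraries). Aph1a, a subunit of gamma-secretase, lost share in Aph1a-201 (29.6 ± 3.45% in UUO and 43.3 ± 4.79% in sham libraries), of which 15.5% of bases lie opposite Car14, itself at 7.55 ± 3.36 FPKM in UUO and 49.3 ± 8.78 FPKM in sham libraries. The part of Car14 was not tested. The rest were Tmem219, Apoo, Sigirr, Arhgap42, Dcakd, Ociad1 and Grb2. Of these, Apoo-204 of the mitochondrial inner membrane gene Apoo differed by -15.1 points and Tmem219-203 by 15.8 points.

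Within single treatments fewer genes passed with 4 libraries a side. Isoform usage was called in 21 genes (0.71%) in UUO vehicle against sham vehicle, in 44 (1.49%) in UUO early against sham early and in 90 (3.04%) in UUO late against sham late. These counts turn on single libraries: without UUO vehicle 3 the vehicle count was 13, without UUO early 4 the early count was 27, without sham early 2 it was 29, and the late count was 43 without UUO late 1, 50 without UUO late 4 and 57 without sham late 1. The counts also say nothing of a difference between the courses. A direct test of whether the obstruction effect on a share differed by course passed for 0 of 9494 transcripts (0.0%) after adjustment with limma, and 585 (6.16%) had an unadjusted p under 0.05.

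Egfr-201 differed by 39.95 points under vehicle, 37.4 under early and 44.8 under late intervention, and Mmp11-201 by 61.0, 58.0 and 59.3 points. Differences for Hsd11b1-205 were 56.9, 45.4 and 65.3 points in the same order. The smallest p of the interaction belonged to Ece1, the endothelin-converting enzyme, where Ece1-201 differed by 0.0 points under vehicle, -2.02 under early and -0.26 under late intervention (adjusted p = 0.123). The next were Dazap1-207 (adjusted p = 0.332), Arsg-203 (0.481) and both transcripts of Zfp110 (0.542), with differences of 27.6 points under vehicle, 47.4 under early and -6.46 under late intervention for Zfp110-201.

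**Figure D5:**
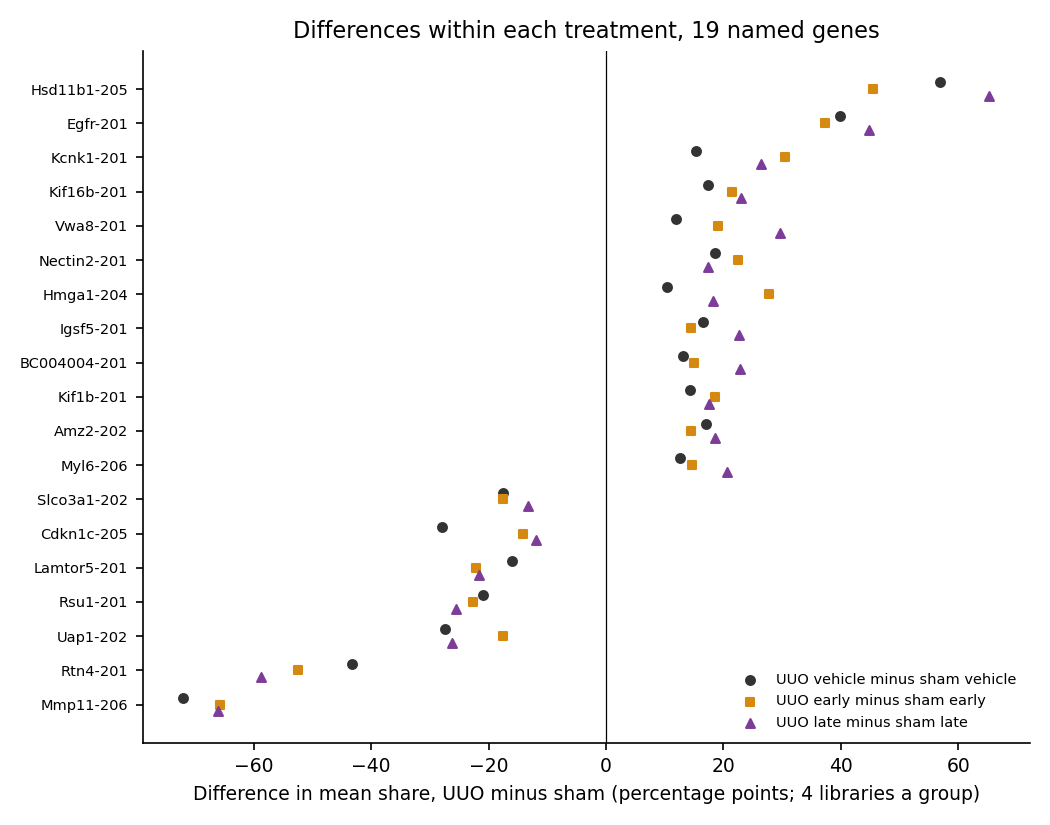
Difference in mean share (x axis, percentage points, UUO minus sham) within vehicle, early and late intervention for the largest changing transcript of the 19 genes named for size without overlap (y axis). The points for Egfr-201 lie at 37.4 to 44.8 and those for Hsd11b1-205 at 45.4 to 65.3.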

How the data were processed

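RNA of left kidneys was extracted with Trizol and made into 24 stranded libraries, per the labels' protocols. The authors deposited FPKM values per gene and per transcript. HISAT2, StringTie, cutadapt and the build GRCm38 are named in the submitters' processing notes. FPKM per transcript are estimates that split fragments between overlapping transcripts, so shares of similar transcripts are uncertain, and a value of 0 can be a failed estimate. Every listed transcript is typed protein coding, and its highest group mean is 0.5002 FPKM or more, so rarer transcripts add nothing to the sums. Summed FPKM was 1.52 times the gene table's value (median). Of member values 11.6% are 0. The lowest library of a gene held an estimated median of 287 fragments.

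Groups came from the titles. Shares were fitted in limma 3.58.1 (R 4.3.3) with a mean for each of the 6 groups, which leaves 18 residual degrees of freedom, and with a trend of variance on mean; tests are two-sided. Levels were fitted on log2(FPKM + 1), transcripts needing 1 FPKM in 4 libraries. ± gives the SD over 12 libraries. Exons came from GENCODE M21, which holds 9160 of the 9494 transcripts with the same ID and locus. The fit was tested on simulated data. Members, lists and the naming rule were chosen with earlier results of these data known. Named were the 20 called genes with the largest difference without overlap, predicted genes aside, 8 genes that exchanged the lead without overlap, up to 4 called genes per list, 6 genes with a total within 0.5 log2 and the 6 transcripts with the smallest interaction p. A few of these genes are not reported here. Alternatives were other scales and filters, a replicate block, no trend, a larger size minimum, Simes p-values per gene, only vehicle libraries and leaving out each library.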

Additional observations from a re-analysis of the deposited data

Results flagged for a closer look

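Among the transcripts of 19 genes named for the largest differences, 114 groups of 4 libraries were searched for a library far from the other 3 (a gap past Dixon's critical value), which chance gives in about 1 group in 20. There were 5. Hsd11b1-205 took 79.6% in UUO vehicle 2, with the other 3 libraries at 95.0 to 97.9%, and 44.8% in sham late 2, with the others at 15.0 to 17.8%. The short Nogo transcript Rtn4-201 took 77.5% in sham vehicle 3, with the others at 36.9 to 43.3%. BC004004-201 took 25.0% in sham early 2, with the others at 35.1 to 35.5%. The kinesin transcript Kif1b-201 took 7.01% in sham late 3, with the others at 4.34 to 4.75%.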

How the results depend on the processing

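The count of 241 genes stayed between 215 and 245 when each library was left out in turn, and that of 375 transcripts likewise stayed within 1.5 times. It was 374 genes and 585 transcripts with a summed FPKM of 1 or more, 84 and 125 with a minimum of 20 points (84 also for genes at any size) and 9 genes from the vehicle libraries alone. Genes at any size came to 975 on the log2 ratio scale with a pseudocount of 0.5. On that scale the counts within vehicle, early and late intervention were 55, 71 and 137, and without the trend 35 under vehicle and 67 under early intervention. Genes that exchanged the lead were 24 with a sum of 10 FPKM or more and 74 with 1 or more. The interaction was called for 2 transcripts at 10 FPKM, 3 at 1 FPKM and 0 to 2 when 1 library was left out. Leaving out 1 library gave 333 to 378 transcripts, 503 to 575 genes at any size, 37 to 43 exchanges of the lead, and 13 to 25, 27 to 50 and 43 to 100 genes within vehicle, early and late intervention. The same replicate numbers did not pair the libraries: the mean correlation of their deviations was 0.0051 over 60 pairs. With the replicate number as a block 241 genes were called, 230 of them shared, and the call of Kcnj16-202 (adjusted p = 0.0512) and of Ezh1-203 (0.0571) was lost. Of the named transcripts only 1 changed sign: the difference in share of Dazap1-207, which did not pass (0.36 points), turned to -0.0323 points without UUO vehicle 2 and -0.0952 points without UUO early 2. The causes of these shifts were not tested, beyond the smaller number of genes or libraries in some settings. Depth limits the shares of genes near 5 FPKM, which rest on few fragments per library.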
